A study of Mus musculus with 12 samples.

Results

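Control plasma cells (PCs) from the spleen of immunized mice were compared with control plasmablasts (PBs) grown in culture. PBs are the dividing precursors of PCs, and both secrete antibodies. The comparison held 4 of the 12 samples of the series, which were 4 of its 10 RNA-seq libraries. Both PC libraries were labelled wildtype and came from C57BL/6 spleen on day 7 after immunization with NP-KLH, a hapten coupled to a carrier protein. The methods of the study describe these controls as Bhlha15 fl/fl mice without Cre. Both PB libraries were of genotype Xbp1 fl/fl without Cre, also C57BL/6, and came from day 8 of the iGB culture, in which splenic B cells grow on an irradiated fibroblast feeder line that makes CD40 ligand and BAFF, first with IL-4 and then with IL-21. PCs had been sorted as TACI+ CD138+ cells and PBs by surface markers that included CD138 (present) and CD23 (absent). Cell stage, culture, feeder RNA, sort, genotype of the control and RNA-seq experiment changed together between the groups and cannot be told apart. The design text of the series calls the Xbp1 fl/fl libraries plasma cells and the Cd23-Cre Bhlha15 fl/fl libraries plasmablasts, whereas the labels of the samples give the names used here. The 24189 genes listed in both sets of files were used, after the ending of 3537 names that reads as a mark of overlap had been removed.

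B cells that meet antigen and T cell help divide and differentiate into PBs, which still divide, and then into PCs, which leave the cell cycle and give most of their transcription to immunoglobulin. Blimp1 (Prdm1), Irf4 and Xbp1 are the transcription factors best known for this step: Blimp1 silences B cell genes, Irf4 is needed for differentiation and survival, and Xbp1 drives the expansion of the endoplasmic reticulum (ER). PCs then depend on survival signals from their niche, such as BAFF and APRIL read by BCMA, and find that niche by chemokine receptors and integrins.

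Values are TPM (transcripts per 1000000 transcripts) as the authors deposited them, given for PC libraries 1 and 2 and then PB libraries 1 and 2. Each library summed to 1000000 TPM without immunoglobulin and T cell receptor genes, and since TPM keep no read number, the depth is unknown. Between 11631 and 11953 genes reached 1 TPM in a library. The median difference between the libraries of a group was 0.12 on the log2 scale in PCs and 0.09 in PBs. Differences are log2 of PCs minus PBs on scaled TPM plus 0.1, with the standard error (SE) of the limma fit, and every adjusted p is a Benjamini-Hochberg value of limma over the 12677 genes tested. Calls needed more than a 3-fold difference, with the adjusted p below 0.05 and more than 5 TPM on average in the higher group. No label says that the libraries of a group came from separate mice or cultures, so the p-values measure the spread between these libraries only. An exact permutation test of 2 against 2 libraries cannot go below 0.333, and none was made. In RNA of a whole population, fewer cells of a type and less RNA per cell cannot be told apart.

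Markers of other cells were present in both groups and were not the same ones. The 17 listed neutrophil markers summed to 1066 and 514 TPM in PCs and to 14.4 and 14.3 TPM in PBs, and PC library 1 held more of them than PC library 2. The 16 T cell markers summed to 134 and 137 TPM in PCs and 13.7 and 15.8 TPM in PBs, and the 16 macrophage and monocyte markers to 325 and 310.2 TPM against 197 and 203 TPM. Fibroblast markers went the other way, since the 23 genes summed to 38.2 and 35.6 TPM in PCs and to 1668 and 1992 TPM in PBs. Col1a1, the main chain of type I collagen, stood at 0.451 and 0.389 TPM in PCs and 588 and 705 TPM in PBs. The ligands that the feeder line makes followed it: Tnfsf13b (BAFF) stood at 1.39 and 1.45 TPM in PCs and 82.9 and 112 TPM in PBs. Cd40lg, the other ligand, stood at 0.941 and 1.61 TPM in PCs and 14.3 and 15.5 TPM in PBs. Among markers tested, 9 of 15 neutrophil, 8 of 15 T cell, 8 of 13 macrophage, 2 of 5 NK cell, 1 of 5 erythroid and 1 of 3 endothelial genes were called higher in PCs. Toward PBs, 13 of 18 fibroblast markers, both feeder ligands and 1 macrophage, 1 dendritic cell and 1 endothelial marker were called. Of 3 platelet markers, 0 were called in either direction. Over all genes tested, 7.97 percent were called toward PCs and 6.52 percent toward PBs. The filter of 1 TPM in 2 libraries admitted a marker near 0 in 1 group only through the group where it was high. The marker counts are therefore selected on the difference and are no test of it. Of 9 NK cell, 8 erythroid and 6 endothelial markers in the files, only 5, 5 and 3 were tested. With 1 library left in the higher group, genes under 1 TPM in both libraries of the other group were not tested. That left out 208 of the 1010 genes called toward PCs and 294 of the 826 toward PBs. Median log2 differences of the markers still tested follow, without library 1 and without library 2 of the higher group. They were 4.35 and 5.54 for neutrophil (5.24 with both), 2.86 and 2.86 for T cell (3.68) and 0.32 and 0.33 for NK cell markers (4.65). Macrophage markers gave -0.60 and -0.29 (4.89) and fibroblast markers -2.74 and -2.50 (-6.49). S100a8, a calcium-binding protein of neutrophils, stood at 357 and 173 TPM in PCs and 1.72 and 2.45 TPM in PBs. Xist, the RNA of the inactive X chromosome, and Y-linked genes were both read in all 4 libraries. Xist stood at 264 and 239 TPM in PCs and 51.3 and 69.6 TPM in PBs. Ddx3y, a Y-linked helicase, stood at 29.3 and 57.5 TPM in PCs and 35.7 and 34.3 TPM in PBs. The part of these other cells and of sex in the results below was not tested, except where a value is given beside a result.

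Of the genes tested, 1010 were called higher in PCs (7.97 percent) and 826 higher in PBs (6.52 percent). By the adjusted p alone, 4744 genes (37.4 percent) were higher in PCs and 4867 (38.4 percent) higher in PBs. The fold was above 10 for 311 of the genes called higher in PCs and for 373 of those called higher in PBs. The libraries of PCs and PBs did not overlap for any called gene, and they did not overlap for 11272 of the 12677 genes tested either way. The count toward PBs was 554 without PB library 1 and 538 without PB library 2, since genes near 0 in PCs were then not tested.

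Igj, which encodes the J chain that joins IgM and IgA into polymers, led both groups with 76923 and 71198 TPM in PCs and 21687 and 22486 TPM in PBs (log2 difference 1.62, SE 0.41, adjusted p = 0.0138). It took 7.41 percent of all TPM in PCs and 2.21 percent in PBs. The call of Igj lay near the fold of 3 and was lost after quantile normalization (log2 difference 0.62), after upper-quartile scaling (1.57) and without PC library 1 (1.56). Behind it came the same kind of genes in both groups: Hsp90b1 (Grp94) and Hspa5 (BiP), the chaperones of the ER, and Mzb1, which helps IgM fold, were each among the 10 most abundant genes of PCs and of PBs. Cd74, the invariant chain of MHC class II, was second in PBs. B2m, the light chain of MHC class I, stood at 13368 and 11308 TPM in PCs and 9807 and 9482 TPM in PBs (0.22, SE 0.21, adjusted p = 0.380) and did not pass the fold. Malat1, a nuclear noncoding RNA, stood at 3935 and 3861 TPM in PCs and 441 and 631 TPM in PBs (2.76, SE 0.16, adjusted p = 4.68e-05).

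The largest differences toward PCs mixed genes of several origins. Among the 15 called genes of the largest change, Fosb, Hspa1a and Plac8 are described below or known from lymphocytes, and Plac8 stood at 654 and 656 TPM in PCs and 2.90 and 3.45 TPM in PBs. Sirpa (62.2 and 55.8 TPM in PCs and 0.0319 and 0 TPM in PBs), Chil3 and C1qb are known from myeloid cells. C1qb was at 12.6 and 13.7 TPM in PCs and listed at 0 in both PB libraries, as was Chil3 at 32.6 and 20.9 TPM in PCs. Other entries were Rsph1, Dgkg, 9430069I07Rik, the locus IMP_IDC_134 and the microRNA genes Mir677, Mir7079 and Mir6905. Toward PBs, the 15 genes of the largest change were led by Cyr61, Ccl2, Col1a1, Slurp1, Ccl7 and Igfbp6, and the others were Col1a2, Efemp1, Fbln2, Anxa8, Cxcl1, Mir7094-2, Msln, S100a16 and Gstm2. Cyr61, Col1a1, Col1a2, Efemp1, Fbln2 and Igfbp6 encode secreted or matrix proteins of connective tissue cells. Ccl2 stood at 0 and 0.113 TPM in PCs and 175 and 204 TPM in PBs, and Slurp1 and Ccl7 were listed at 0 in both PC libraries and reached 89.3 and 93.9 TPM and 84.3 and 95.8 TPM in PBs.

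How far the genes called higher in PBs moved with the feeder RNA was read in libraries outside the control groups. The 2 PB libraries of genotype Bhlha15 CreER/CreER held 2158 and 1337 TPM of the fibroblast markers. In these libraries the 13 fibroblast markers called higher in PBs differed by 0.26 to 0.90 on the log2 scale, with a median of 0.63. The median was 0.23 over the 826 genes called higher in PBs, 0.00 over the 1010 genes called higher in PCs and 0.00 over all genes tested. Of the 826 genes, 377 (45.6 percent) lay within the range of the fibroblast markers, against 17.7 percent of all genes tested. This is a description of 2 libraries and was chosen after the data had been seen.

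**Figure D1:**
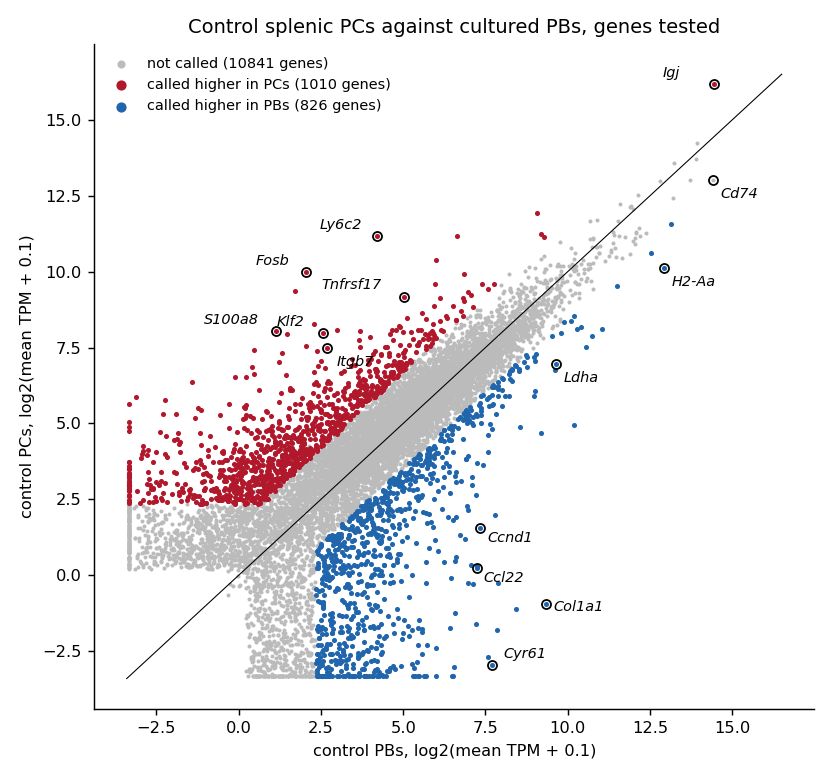
Mean TPM of control PCs (y axis) against control PBs (x axis), both as log2 of mean TPM plus 0.1, for the 12677 genes tested, with the line of equal values. The 1010 genes called higher in PCs are in red, the 826 called higher in PBs in blue, and circled genes are named in the text.

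Among the transcription factors of PCs, Prdm1 and Irf4 did not pass the test, whereas others were higher in PCs. Of 14 factors tested, 7 were past the adjusted p toward PCs and 1 toward PBs (against 37.4 and 38.4 percent of all genes). The other 6 passed in neither direction. Of the 14, 2 were called higher in PCs and 0 higher in PBs (against 7.97 and 6.52 percent of all genes). Their median log2 difference was 0.31 against -0.01 over all genes. Prdm1 stood at 175 and 198 TPM in PCs and 205 and 175 TPM in PBs (log2 difference -0.15, SE 0.10, adjusted p = 0.208). Irf4 stood at 688 and 739 TPM in PCs and 683 and 651 TPM in PBs (-0.03, SE 0.07, adjusted p = 0.699). Neither passed the test, and Prdm1 overlapped between the groups. Xbp1 stood at 5099 and 4458 TPM in PCs and 3168 and 3043 TPM in PBs (0.49, SE 0.14, adjusted p = 0.0194). Bhlha15, which encodes Mist1, stood at 258 and 242 TPM in PCs and 176 and 159 TPM in PBs (0.45, SE 0.08, adjusted p = 0.00390). Both were higher in PCs by less than 2-fold. The called factors were Zbtb20 and Creb3l2. Zbtb20, needed for long-lived PCs, stood at 25.1 and 20.9 TPM in PCs and 2.51 and 2.56 TPM in PBs (3.00, SE 0.16, adjusted p = 3.29e-05). Creb3l2, an ER stress sensor of the OASIS family, stood at 339 and 343 TPM in PCs and 101 and 95.5 TPM in PBs (1.67, SE 0.06, adjusted p = 1.43e-05). Pou2af1, the Oct coactivator of immunoglobulin promoters, was the one factor past the adjusted p toward PBs, at 1509.7 and 1579 TPM in PCs and 3805 and 3741 TPM in PBs (-1.42, SE 0.09, adjusted p = 7.15e-05).

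The machinery of secretion and ribosome biogenesis gave almost no calls. The lists tested held 31 genes of ER translocation and oligosaccharyl transfer, 32 of ER to Golgi transport and 26 of ribosome biogenesis. Of these, 0 were called in either direction (against 7.97 and 6.52 percent of all genes toward PCs and PBs). At the adjusted p alone the lists gave 4 and 13, 7 and 14, and 6 and 14 genes toward PCs and PBs (against 37.4 and 38.4 percent of all genes). Their medians were -0.19, -0.14 and -0.25, and the first turned to 0.12 after quantile normalization. Without scaling all genes moved by a median of 0.12 toward PCs. Sec11c, Ssr4 and Krtcap2 were the most abundant genes of the translocation list, and Ssr4, a subunit of the translocon-associated complex, stood at 3258 and 3359.9 TPM in PCs and 1884 and 1930.4 TPM in PBs (0.67, SE 0.09, adjusted p = 0.00120).

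Among 39 chaperones, disulfide isomerases and genes of ER-associated degradation (ERAD), 1 was called in each direction (against 7.97 and 6.52 percent of all genes). The median was 0.10. Derl3, a channel protein of ERAD, stood at 2436 and 2416 TPM in PCs and 584 and 580 TPM in PBs (1.93, SE 0.07, adjusted p = 1.55e-05). Ero1l, the oxidase that recharges disulfide isomerases, stood at 44.4 and 40.2 TPM in PCs and 158 and 172 TPM in PBs (-2.09, SE 0.08, adjusted p = 1.55e-05). Hsp90b1 stood at 18809 and 19423 TPM in PCs and 15657 and 15277 TPM in PBs (0.18, SE 0.25, adjusted p = 0.548). Hspa5 stood at 8269.7 and 8087 TPM in PCs and 7262 and 7136 TPM in PBs (0.06, SE 0.16, adjusted p = 0.773). Mzb1 stood at 13036 and 13432 TPM in PCs and 15573 and 14995 TPM in PBs (-0.34, SE 0.23, adjusted p = 0.224). None of these 3 passed the test. The 39 genes summed to 91736 and 92253 TPM in PCs and to 87666 and 84499 TPM in PBs.

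The ER stress element, CCAAT and CCACG spaced by any 9 bases, on either strand, is the sequence through which Atf6 and Xbp1 are known to act on chaperone promoters. It was found in the RefSeq promoter windows (250 bases before to 50 after the start, GRCm38.p6) of 10 of the 34 members of this list that have one (29.4 percent) and of 37 of all 27025 genes (0.137 percent). The 10 genes were Hspa5, Hsp90b1, Calr, Canx, Pdia6, Dnajc3, Creld2, Ero1lb, Syvn1 and Derl3, and their median log2 difference was 0.12, against 0.10 for the 24 without a match. The window of Hsp90b1, the most abundant of them, is shown as the promoter of a gene that stayed near in level, with its matches in capitals. It lies at chr10:86705395-86705694, and the gene is read from the minus strand.
Hsp90b1: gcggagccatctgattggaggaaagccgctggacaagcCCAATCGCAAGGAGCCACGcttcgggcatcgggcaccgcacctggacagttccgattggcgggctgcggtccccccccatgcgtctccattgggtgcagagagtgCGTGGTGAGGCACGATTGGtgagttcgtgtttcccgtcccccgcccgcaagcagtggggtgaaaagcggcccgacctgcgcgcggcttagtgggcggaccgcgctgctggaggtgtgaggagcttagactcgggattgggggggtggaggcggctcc

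Survival and cytokine receptors were called in both directions. Of 19 tested, 7 were called higher in PCs (against 7.97 percent of all genes) and 2 higher in PBs (against 6.52 percent). Tnfrsf17 (BCMA), the receptor of APRIL and BAFF on PCs, stood at 584 and 572 TPM in PCs and 32.02 and 33.2 TPM in PBs (4.01, SE 0.05, adjusted p = 3.73e-06). Cd38, an ectoenzyme of lymphocytes, stood at 48.2 and 53.6 TPM in PCs and 3.82 and 4.97 TPM in PBs (3.39, SE 0.14, adjusted p = 1.82e-05). Il10ra, a chain of the IL-10 receptor, stood at 24.7 and 29.95 TPM in PCs and 1.93 and 2.92 TPM in PBs (3.34, SE 0.21, adjusted p = 6.10e-05). Lag3, an inhibitory receptor, stood at 21.1 and 19.5 TPM in PCs and 2.22 and 1.92 TPM in PBs (3.11, SE 0.16, adjusted p = 3.12e-05). The other 3 were Cd274 (PD-L1), Il6ra and Cd28, with log2 differences of 1.77, 1.77 and 1.75, and the call of Il6ra was lost without PB library 1. Il21r, the receptor of the cytokine given last in the culture, stood at 25.5 and 36.1 TPM in PCs and 138 and 140.2 TPM in PBs (-2.32, SE 0.15, adjusted p = 5.71e-05). Il5ra, the receptor of IL-5, which the culture did not supply, stood at 49.1 and 62.2 TPM in PCs and 180.3 and 190.3 TPM in PBs (-1.87, SE 0.10, adjusted p = 3.63e-05). Receptor chains for the IL-4 and BAFF of the culture were past the adjusted p but below the fold, with log2 differences of -1.18 for Il4ra, -1.44 for Il2rg and 0.38 for Tnfrsf13c. Tnfrsf13b (TACI) and Sdc1 (CD138) were gates of the sorts, so their levels are no finding: Tnfrsf13b stood at 348 and 324 TPM in PCs and 252 and 221 TPM in PBs. Sdc1 stood at 458 and 395 TPM in PCs and 166 and 157 TPM in PBs.

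Of 15 Bcl2 family genes, 0 were called higher in PCs and 2 higher in PBs (against 7.97 and 6.52 percent of all genes). Mcl1, the member on which PCs are known to depend, stood at 1088 and 1073 TPM in PCs and 642 and 623 TPM in PBs (0.64, SE 0.07, adjusted p = 4.06e-04). Bcl2 stood at 24.8 and 27.8 TPM in PCs and 10.1 and 10.7 TPM in PBs (1.20, SE 0.10, adjusted p = 1.26e-04). Bcl2l1 (Bcl-xL), another inhibitor of apoptosis, stood at 39.4 and 40.2 TPM in PCs and 153 and 144 TPM in PBs (-2.03, SE 0.06, adjusted p = 1.14e-05). Mcl1 and Bcl2 were thus higher in PCs by less than 3-fold, while Bcl2l1 was called higher in PBs. Bcl2a1d was the other called member, and its near-identical copies make its value uncertain, and its call was lost without PB library 1.

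Homing and adhesion genes held some of the largest differences of the comparison. Of 26 tested, 11 were called higher in PCs and 3 higher in PBs (against 7.97 and 6.52 percent of all genes). The median was 1.03. Ly6c2, a surface protein of PCs and myeloid cells, stood at 2444 and 2148 TPM in PCs and 19.7 and 17.1 TPM in PBs (6.83, SE 0.11, adjusted p = 6.47e-06). Ccr9, the receptor of the gut chemokine Ccl25, stood at 15.3 and 13.4 TPM in PCs and 0 and 0.0546 TPM in PBs (6.78, SE 0.31, adjusted p = 2.37e-05). Both were under 20 TPM in each PB library. Epcam, an adhesion molecule, stood at 139.5 and 118 TPM in PCs and 1.96 and 2.56 TPM in PBs (5.65, SE 0.16, adjusted p = 9.47e-06). Klf2, a transcription factor that drives S1pr1 in lymphocytes, stood at 291 and 211 TPM in PCs and 5.79 and 5.88 TPM in PBs (5.26, SE 0.16, adjusted p = 1.14e-05).

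Other homing genes called higher in PCs were Cxcr3, Itgb7, Itga4, Ly6k, S1pr1 and Ccr7. Itga4, the alpha chain of the gut integrin, stood at 239 and 256 TPM in PCs and 25.8 and 22.8 TPM in PBs (3.22, SE 0.08, adjusted p = 8.86e-06). Itgb7, its beta chain, stood at 190 and 168 TPM in PCs and 6.45 and 6.33 TPM in PBs (4.66, SE 0.09, adjusted p = 6.76e-06). Cxcr3, a receptor of inflammatory chemokines, stood at 44.8 and 26.7 TPM in PCs and 1.42 and 0.672 TPM in PBs (4.88, SE 0.41, adjusted p = 1.50e-04). In contrast Cxcr5, which leads B cells to follicles, was called higher in PBs at 27.5 and 43.4 TPM in PCs and 106 and 96.9 TPM in PBs (-1.68, SE 0.20, adjusted p = 5.45e-04), a call that was lost without scaling and without PC library 1. Cd93, known to help PCs persist in bone marrow, was also called higher in PBs at 139 and 129 TPM in PCs and 535 and 493 TPM in PBs (-2.07, SE 0.08, adjusted p = 1.67e-05). The third, Ly6c1, stood at 0.644 and 0.611 TPM in PCs and 7.21 and 8.68 TPM in PBs, the reverse of its neighbour Ly6c2. Between the Bhlha15 CreER/CreER PB libraries Ly6c1 differed by 0.70 on the log2 scale, within the 0.26 to 0.90 of the called fibroblast markers, whereas Cd93 differed by -0.03 and Cxcr5 by 0.10. Cxcr4, the bone marrow homing receptor, stood at 302 and 258 TPM in PCs and 98.9 and 91.9 TPM in PBs (1.42, SE 0.10, adjusted p = 9.88e-05) and was past the adjusted p but below the fold. Ccr10, a mucosal chemokine receptor, stood at 56.5 and 44.3 TPM in PCs and 53.96 and 51.6 TPM in PBs and did not pass the test. Beside these values, Ccr7, Klf2 and S1pr1 are also genes of naive lymphocytes, and the T cell markers were higher in PC libraries.

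**Figure D2:**
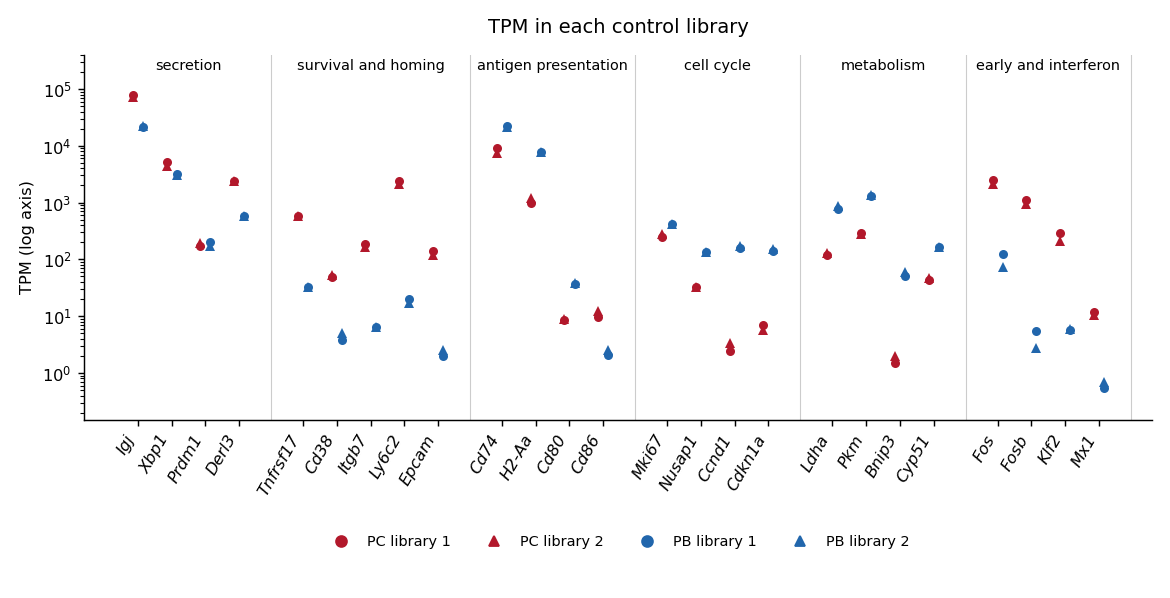
TPM (log axis) of 25 genes named in the text in the 4 control libraries, grouped by theme. Prdm1 overlaps between PCs and PBs, whereas Tnfrsf17, Ly6c2, Ccnd1, Ldha, Bnip3 and Fosb lie far apart.

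B cell identity genes did not move one way. Of 12 B cell transcription factors, 2 were called in each direction (against 7.97 percent of all genes toward PCs and 6.52 percent toward PBs). Bach2, which holds B cells back from differentiation, stood at 7.38 and 8.76 TPM in PCs and 0.634 and 0.932 TPM in PBs (3.10, SE 0.24, adjusted p = 1.15e-04). Spib, a relative of PU.1, stood at 50.7 and 74.1 TPM in PCs and 13.5 and 22.7 TPM in PBs (1.67, SE 0.27, adjusted p = 0.00196). Pax5, the factor that sets B cell identity, stood at 28.8 and 44.04 TPM in PCs and 10.5 and 11.6 TPM in PBs (1.56, SE 0.19, adjusted p = 6.41e-04), just below the fold. Id3 and Irf8 were called higher in PBs. Id3, an inhibitor of E proteins, stood at 11.98 and 13.6 TPM in PCs and 76.5 and 80.3 TPM in PBs (-2.74, SE 0.08, adjusted p = 9.47e-06). Irf8, an interferon regulatory factor of B cells, stood at 62.7 and 83.8 TPM in PCs and 219 and 218 TPM in PBs (-1.72, SE 0.12, adjusted p = 8.73e-05), and its call was lost without PC library 1. The list median of 0.04 changed sign after quantile normalization, upper-quartile scaling or without either PC library. PC library 2 held more of these genes than PC library 1, with a median of -0.20 for library 1 minus library 2 on the log2 scale. Without PC library 2 no factor was called toward PCs, without PB library 1 the count was 1, and without PC library 1 it was 1 toward PBs.

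Among 22 B cell surface and receptor signaling genes, 6 were called higher in PCs (against 7.97 percent of all genes). Toward PBs 1 was called (against 6.52 percent). Cr2 (CD21), a complement receptor of mature B cells, stood at 48.97 and 89.7 TPM in PCs and 3.08 and 2.65 TPM in PBs (4.36, SE 0.27, adjusted p = 5.72e-05). Fcgr2b, the inhibitory Fc receptor, stood at 271 and 242 TPM in PCs and 31.2 and 31.7 TPM in PBs (2.89, SE 0.08, adjusted p = 9.47e-06). Fcrla, an intracellular Fc receptor-like protein, stood at 487 and 448 TPM in PCs and 94.8 and 87.3 TPM in PBs (2.23, SE 0.08, adjusted p = 1.50e-05). The most abundant of the list were not called, with log2 differences of 0.26 for Cd79b, -0.28 for Cd24a and -0.22 for Cd79a. The T cell costimulators split: Cd86 stood at 9.64 and 12.4 TPM in PCs and 2.07 and 2.50 TPM in PBs (2.09, SE 0.19, adjusted p = 1.97e-04). Cd80 stood at 8.58 and 9.03 TPM in PCs and 36.8 and 38.8 TPM in PBs (-2.22, SE 0.09, adjusted p = 1.58e-05). Siglecg and Cd72, inhibitory receptors of B cells, and Cd86 completed the genes called higher in PCs, and the call of Cd72 was lost without PC library 2. Cr2 was again higher in PC library 2 than in PC library 1. Fcer2a (CD23), on which PBs had been sorted negative, stood at 56.6 and 103 TPM in PCs and 67.2 and 76.9 TPM in PBs.

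Antigen presentation through MHC class II was higher in PBs. Of 10 genes tested, 5 were called higher in PBs and 0 higher in PCs, against 6.52 percent of all genes, and the median was -1.66. H2-Aa, the alpha chain of I-A, stood at 1001 and 1214 TPM in PCs and 7738 and 7785 TPM in PBs (-2.94, SE 0.12, adjusted p = 1.85e-05). H2-Ab1, its beta chain, stood at 1493 and 1615 TPM in PCs and 5852 and 5962 TPM in PBs (-2.06, SE 0.10, adjusted p = 3.06e-05). H2-Eb1, the beta chain of I-E, stood at 687 and 779.7 TPM in PCs and 2888 and 2847 TPM in PBs (-2.10, SE 0.09, adjusted p = 1.86e-05). Chains of H2-DM, which loads peptides, followed. H2-DMa stood at 68.3 and 82.5 TPM in PCs and 242 and 232 TPM in PBs (-1.79, SE 0.09, adjusted p = 2.80e-05). H2-DMb2 stood at 86.1 and 147 TPM in PCs and 426 and 433 TPM in PBs (-2.06, SE 0.22, adjusted p = 3.77e-04). Cd74 stood at 8999.7 and 7616 TPM in PCs and 22481 and 21592 TPM in PBs (-1.54, SE 0.24, adjusted p = 0.00172), past the adjusted p but below the fold. Ciita, the coactivator that switches these genes on, did not follow them: it stood at 17.5 and 30.6 TPM in PCs and 12.2 and 15.3 TPM in PBs (0.63, SE 0.26, adjusted p = 0.0656) and did not pass the test. PC library 2 exceeded PC library 1, with a median of -0.36 over the list for library 1 minus library 2 (log2 scale).

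Of 8 germinal center genes, 4 were called higher in PBs and 0 higher in PCs (against 6.52 and 7.97 percent of all genes). The median was -1.69. Basp1, a membrane protein, stood at 55.8 and 65.1 TPM in PCs and 283 and 267 TPM in PBs (-2.32, SE 0.08, adjusted p = 1.37e-05). Gcsam, a signaling protein of germinal center B cells, stood at 3.46 and 4.70 TPM in PCs and 15.3 and 15.1 TPM in PBs (-2.01, SE 0.17, adjusted p = 1.56e-04). Fas, the death receptor, stood at 24.1 and 25.7 TPM in PCs and 87.1 and 91.999 TPM in PBs (-1.97, SE 0.06, adjusted p = 1.13e-05). The receptor S1pr2, which confines cells to germinal centers, stood at 21.2 and 18.9 TPM in PCs and 18.6 and 17.4 TPM in PBs and did not pass the test.

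The cell cycle set the groups apart in one direction. All 34 mitotic genes tested were past the adjusted p toward PBs (against 38.4 percent of all genes). Of them 8 were called (against 6.52 percent), and the median was -1.50. Nusap1, a spindle protein, stood at 32.1 and 32.3 TPM in PCs and 135 and 137 TPM in PBs (-2.20, SE 0.05, adjusted p = 8.60e-06). Ect2, needed for cytokinesis, stood at 15.1 and 16.4 TPM in PCs and 53.8 and 56.3 TPM in PBs (-1.93, SE 0.07, adjusted p = 1.50e-05). Cenpf, a kinetochore protein, stood at 10.7 and 11.8 TPM in PCs and 36.8 and 37.7 TPM in PBs (-1.85, SE 0.09, adjusted p = 2.39e-05). The most abundant were Mki67, Top2a and Ube2c. Mki67 (Ki-67), the usual marker of dividing cells, stood at 246 and 283 TPM in PCs and 419 and 415 TPM in PBs (-0.79, SE 0.07, adjusted p = 1.92e-04). Top2a, a topoisomerase, stood at 141 and 153 TPM in PCs and 374 and 373 TPM in PBs (-1.48, SE 0.06, adjusted p = 1.53e-05). Ube2c, a ubiquitin enzyme of mitotic exit, stood at 142 and 124 TPM in PCs and 359 and 354 TPM in PBs (-1.55, SE 0.09, adjusted p = 4.27e-05). None of these was absent from PCs, where the summed level of the list was 1757 and 1842 TPM against 4070.3 and 4114 TPM in PBs. Between the Bhlha15 CreER/CreER PB libraries Ect2 differed by 0.35 and Cenpf by 0.27 on the log2 scale. Both lay within the 0.26 to 0.90 of the called fibroblast markers. The other called mitotic genes lay below it: Nusap1 (0.13), Hmmr (0.12), Kif20a (0.12), Nuf2 (0.07), Tpx2 (0.04) and Ccna2 (0.03).

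Replication genes showed the same direction with smaller differences. Of 44 tested, 39 were past the adjusted p toward PBs and 2 toward PCs (against 38.4 and 37.4 percent of all genes). The calls toward PBs numbered 5 (against 6.52 percent), and the median was -0.89. Mcm3, a subunit of the replicative helicase, stood at 56.5 and 65.8 TPM in PCs and 210.3 and 205 TPM in PBs (-1.90, SE 0.08, adjusted p = 1.67e-05). Gins2, a helicase cofactor, stood at 20.2 and 23.8 TPM in PCs and 71.8 and 70.6 TPM in PBs (-1.82, SE 0.09, adjusted p = 2.42e-05). Rrm1, a subunit of ribonucleotide reductase, stood at 61.8 and 59.2 TPM in PCs and 171 and 172 TPM in PBs (-1.63, SE 0.06, adjusted p = 1.43e-05). Chaf1a, which places histones on new DNA, stood at 23.01 and 27.3 TPM in PCs and 69.9 and 71.4 TPM in PBs (-1.62, SE 0.08, adjusted p = 3.27e-05). The called genes Lig1, Rrm1, Chaf1a and, among mitotic genes, Ccna2, Tpx2, Nuf2 and Hmmr lay so near the fold of 3 that they were lost without scaling, which left 2 replication and 4 mitotic calls. Replication calls numbered 3 without PC library 1, and mitotic calls 13 without PB library 2 and 14 after upper-quartile scaling.

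The CHR element, TTTGAA on either strand, is known to mark promoters of mitotic genes that the DREAM complex represses outside division. It was present in the RefSeq windows of 21 of the 28 mitotic genes that have one and of 20.2 percent of all 27025 genes. The median log2 difference was -1.48 for the 21 genes with it and -1.51 for the 7 without. The window of Ect2, the called gene with a match that differed most, is shown with the matches in capitals. It lies at chr3:27153829-27154128, read from the minus strand.
Ect2: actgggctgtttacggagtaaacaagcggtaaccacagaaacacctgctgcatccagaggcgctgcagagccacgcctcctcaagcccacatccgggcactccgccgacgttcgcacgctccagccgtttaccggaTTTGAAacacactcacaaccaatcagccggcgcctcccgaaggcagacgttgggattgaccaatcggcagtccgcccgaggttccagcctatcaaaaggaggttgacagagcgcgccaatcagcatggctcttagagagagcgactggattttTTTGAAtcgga

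Among the genes listed for entry into the cycle, Ccnd1 differed most, and which cells it came from was not tested. Of 15 cyclins, Cdks and E2F factors of G1, 2 were called, both toward PBs (against 6.52 percent of all genes). Ccnd1 (cyclin D1) stood at 2.42 and 3.32 TPM in PCs and 156 and 169 TPM in PBs (-5.92, SE 0.14, adjusted p = 7.82e-06). Cdk6, its kinase partner, stood at 4.14 and 4.18 TPM in PCs and 20.6 and 24.7 TPM in PBs (-2.54, SE 0.13, adjusted p = 3.30e-05). Ccnd2, the D cyclin of B cells, stood at 251 and 225 TPM in PCs and 463 and 416 TPM in PBs (-1.01, SE 0.10, adjusted p = 2.57e-04). Myc, a driver of growth, stood at 64.5 and 65.4 TPM in PCs and 126 and 123 TPM in PBs (-1.07, SE 0.06, adjusted p = 3.30e-05). The inhibitors did not mirror them. Cdkn1a (p21) stood at 6.85 and 5.59 TPM in PCs and 143 and 154 TPM in PBs (-4.69, SE 0.12, adjusted p = 8.86e-06). Cdkn2a (p16 and p19Arf) stood at 8.80 and 5.95 TPM in PCs and 71.5 and 75.7 TPM in PBs (-3.45, SE 0.20, adjusted p = 4.07e-05). Cdkn2b (p15) stood at 4.48 and 3.21 TPM in PCs and 14.5 and 16.3 TPM in PBs (-2.12, SE 0.20, adjusted p = 2.40e-04). These 3 of 12 inhibitors and antiproliferative genes were called higher in PBs (against 6.52 percent of all genes). Cdkn1b (p27) stood at 176 and 200.2 TPM in PCs and 85.2 and 92.7 TPM in PBs (0.95, SE 0.07, adjusted p = 9.73e-05). Btg2, an antiproliferative gene, stood at 819.5 and 729 TPM in PCs and 174 and 164 TPM in PBs (2.07, SE 0.09, adjusted p = 2.09e-05). Both were higher in PCs, and Btg2 was called. The fibroblast markers were also higher in PB libraries. Between the Bhlha15 CreER/CreER PB libraries Ccnd1 differed by 0.20, Cdk6 by 0.38, Cdkn1a by 0.26, Cdkn2a by -0.10 and Cdkn2b by 0.16 on the log2 scale. Cdk6 and, at its lower edge, Cdkn1a lay within the 0.26 to 0.90 of the called fibroblast markers.

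**Figure D3:**
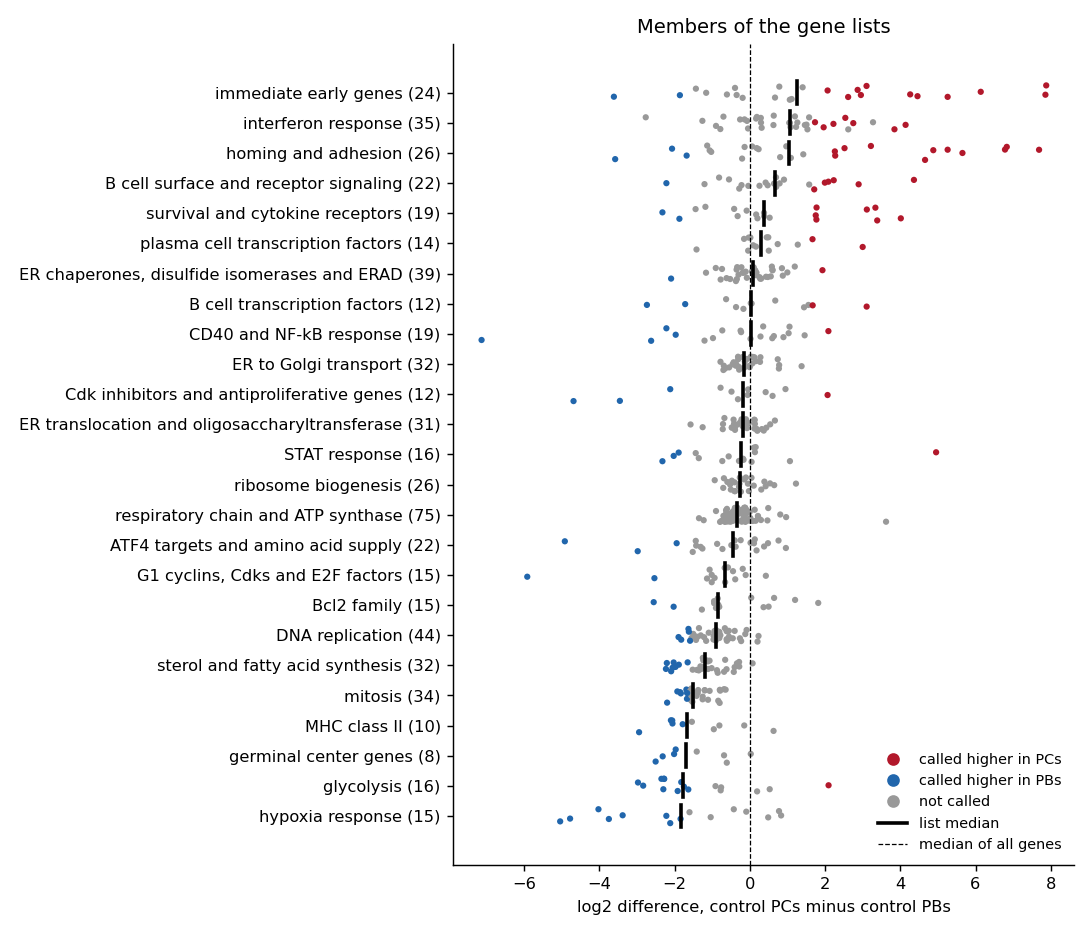
Log2 difference of control PCs minus control PBs for each tested member of the gene lists (points), with the list median (bar), the median of all genes tested (dashed line) and the number tested in parentheses. Immediate early, interferon and homing genes reach far toward PCs, and hypoxia, glycolysis, germinal center, MHC class II and mitotic genes lie toward PBs.

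Glycolytic genes were higher in PBs. Of 16 tested, 10 were called higher in PBs and 1 higher in PCs (against 6.52 and 7.97 percent of all genes). The median was -1.79. Tpi1, triosephosphate isomerase, stood at 114 and 103 TPM in PCs and 741 and 826 TPM in PBs (-2.97, SE 0.08, adjusted p = 9.47e-06). Ldha, which turns pyruvate into lactate, stood at 119 and 128 TPM in PCs and 758 and 856 TPM in PBs (-2.84, SE 0.07, adjusted p = 7.51e-06). Pkm, pyruvate kinase, stood at 296 and 282 TPM in PCs and 1328 and 1371 TPM in PBs (-2.35, SE 0.07, adjusted p = 9.47e-06). Aldoa, an aldolase, stood at 275 and 281 TPM in PCs and 1195 and 1285 TPM in PBs (-2.28, SE 0.06, adjusted p = 9.16e-06). The glucose transporter Slc2a1 stood at 29.6 and 29.9 TPM in PCs and 84.6 and 100 TPM in PBs (-1.75, SE 0.08, adjusted p = 2.56e-05). Gapdh was the member called higher in PCs, at 12.8 and 12.8 TPM in PCs and 1.97 and 3.60 TPM in PBs, and Eno1 was listed at 0 in all 4 libraries. Both have near-identical copies in the genome, and such low values of genes that every cell uses make their direction uncertain.

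Hypoxia genes, which Hif1 drives, behaved in the same way, with a median of -1.84. Of 15 tested, 8 were called higher in PBs and 0 higher in PCs (against 6.52 and 7.97 percent of all genes). Bnip3, a mitophagy receptor, stood at 1.47 and 2.03 TPM in PCs and 50.2 and 60.7 TPM in PBs (-5.04, SE 0.18, adjusted p = 1.37e-05). Ndrg1, a stress protein, stood at 4.89 and 4.58 TPM in PCs and 100.1 and 147 TPM in PBs (-4.78, SE 0.18, adjusted p = 1.43e-05). Egln3, an oxygen sensor that Hif1 induces, stood at 0.792 and 0.751 TPM in PCs and 12.2 and 13.7 TPM in PBs (-4.02, SE 0.18, adjusted p = 2.22e-05). Vegfa, the angiogenic factor, stood at 29.9 and 24.6 TPM in PCs and 86.6 and 91.8 TPM in PBs (-1.84, SE 0.11, adjusted p = 5.45e-05). Not all members shared the direction, as Pfkfb3, Pfkfb4 and Ankrd37 were past the adjusted p toward PCs. In the Bhlha15 CreER/CreER PB libraries the lists differed by medians of 0.11 for glycolysis and 0.29 for hypoxia, against 0.58 for all tested fibroblast markers, and in PB libraries of the Cd23-Cre Xbp1 fl/fl genotype by 0.47 and 0.37 against 0.17. Between the control PB libraries, library 1 minus library 2, the medians were -0.07 for glycolysis and -0.19 for hypoxia, against -0.20 for fibroblast markers. Of the hypoxia genes called, Ndrg1 (0.64), Adm (0.53), Bnip3 (0.46) and Slc16a3 (0.34) lay within the 0.26 to 0.90 of the called fibroblast markers between the Bhlha15 CreER/CreER PB libraries, whereas P4ha1 (0.20), Egln1 (0.07) and Vegfa (-0.10) lay below it and Egln3 (0.26) at its edge. Of the glycolytic genes called higher in PBs, Pgam1 (0.29) and, at the lower edge, Slc2a1 (0.26) lay within the same range. Below it were Pfkl (0.225), Aldoc (0.15), Tpi1 (0.10), Ldha (0.07), Aldoa (0.03), Gpi1 (0.03), Pkm (0.02) and Pgk1 (-0.21).

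The core of the hypoxia response element, ACGTG on either strand, was found in the RefSeq windows of 11 of 15 hypoxia genes (73.3 percent) and of 21.8 percent of all genes. The letters overlap those of other elements, and 55.9 percent of the ER chaperone windows also held them. The 9 tested genes with a match had a median log2 difference of -2.12 and the 4 without one of -0.57. The window of Bnip3, the called gene that differed most, is shown because its 2 matches are the same 6 letters read on both strands. It lies at chr7:138909457-138909756, read from the minus strand.
Bnip3: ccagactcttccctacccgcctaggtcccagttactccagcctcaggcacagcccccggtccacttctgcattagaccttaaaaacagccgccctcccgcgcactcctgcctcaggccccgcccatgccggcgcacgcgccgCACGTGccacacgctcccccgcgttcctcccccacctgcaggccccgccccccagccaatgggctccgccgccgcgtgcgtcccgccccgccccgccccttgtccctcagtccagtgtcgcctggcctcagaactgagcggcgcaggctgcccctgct

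Other metabolic lists were graded between these. Sterol and fatty acid synthesis had 31 of 32 genes past the adjusted p toward PBs (against 38.4 percent of all genes). Of these, 8 were called (against 6.52 percent), and the median of the list was -1.19. Sc4mol, a sterol oxidase, stood at 35.4 and 42.03 TPM in PCs and 163 and 168 TPM in PBs (-2.23, SE 0.08, adjusted p = 1.39e-05). Stard4, a sterol carrier, stood at 11.6 and 15.8 TPM in PCs and 49.998 and 53.7 TPM in PBs (-2.05, SE 0.14, adjusted p = 7.34e-05). Cyp51, a sterol demethylase, stood at 43.3 and 47.4 TPM in PCs and 163 and 163 TPM in PBs (-1.98, SE 0.06, adjusted p = 9.75e-06). Srebf2, which encodes the factor that drives them, stood at 176 and 172 TPM in PCs and 341 and 328 TPM in PBs (-1.07, SE 0.06, adjusted p = 4.33e-05). The 75 genes of the respiratory chain gave 0 calls (against 7.97 and 6.52 percent of all genes toward PCs and PBs). By the adjusted p alone, 47 of them were higher in PBs and 5 in PCs (against 38.4 and 37.4 percent of all genes). The median over the 75 genes was -0.34. Of 22 ATF4 targets and genes of amino acid supply, 3 were called higher in PBs (against 6.52 percent), namely Nupr1, Cth and Sesn2. The count rose without PC library 1. Nupr1, a stress-induced nuclear protein, stood at 2.07 and 2.19 TPM in PCs and 54.4 and 69.8 TPM in PBs (-4.92, SE 0.14, adjusted p = 9.47e-06). Cth, which makes cysteine, stood at 4.70 and 4.26 TPM in PCs and 33.3 and 32.7 TPM in PBs (-2.98, SE 0.12, adjusted p = 1.67e-05). Atf4 itself was higher in PCs, at 842 and 801 TPM in PCs and 515 and 561 TPM in PBs (0.48, SE 0.07, adjusted p = 0.00161).

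Genes induced by CD40 and STAT signals, which the culture supplies, were split. Of 19 CD40 and NF-kB genes, 4 were called higher in PBs and 1 higher in PCs (against 6.52 and 7.97 percent of all genes). Ccl22, a chemokine of activated B cells, stood at 1.36 and 0.807 TPM in PCs and 127 and 174 TPM in PBs (-7.13, SE 0.27, adjusted p = 1.53e-05). Ebi3, a subunit of IL-27 and IL-35, stood at 43.4 and 36.1 TPM in PCs and 225 and 222 TPM in PBs (-2.62, SE 0.11, adjusted p = 1.77e-05). The remaining called genes were Cd80, Fas and Cd86. Nfkbia, the inhibitor that NF-kB induces, was higher in PCs at 812 and 683 TPM in PCs and 236 and 261 TPM in PBs (1.46, SE 0.11, adjusted p = 9.99e-05), below the fold, and 2 genes were called toward PCs without PC library 2. Of 16 STAT genes, Il10 was called higher in PCs at 18.4 and 16.1 TPM in PCs and 0.309 and 0.551 TPM in PBs (4.95, SE 0.27, adjusted p = 3.80e-05), and with either PC library alone it was below the filter and not tested. Il21r and the feedback inhibitors Socs1 and Socs3 were called higher in PBs. The STAT list thus had 1 call toward PCs and 3 toward PBs (against 7.97 and 6.52 percent of all genes). Socs1 stood at 10.98 and 9.96 TPM in PCs and 36.9 and 34.7 TPM in PBs (-1.89, SE 0.11, adjusted p = 3.97e-05). Socs3 stood at 16.2 and 13.6 TPM in PCs and 66.9 and 46.03 TPM in PBs (-2.02, SE 0.21, adjusted p = 3.14e-04). Between the Bhlha15 CreER/CreER PB libraries Socs3 differed by 0.33, within the range of the called fibroblast markers, as did Nupr1 by 0.27, whereas Ccl22 differed by -0.34 and Ebi3 by -0.25.

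Interferon response genes were higher in PCs. Of 35 tested, 7 were called higher in PCs and 0 higher in PBs (against 7.97 and 6.52 percent of all genes). The adjusted p was passed by 23 toward PCs and 5 toward PBs (against 37.4 and 38.4 percent), and the median was 1.07. Cmpk2, a nucleotide kinase, stood at 17.01 and 16.4 TPM in PCs and 0.845 and 0.715 TPM in PBs (4.14, SE 0.18, adjusted p = 2.19e-05). Mx1, an antiviral GTPase, stood at 11.6 and 10.4 TPM in PCs and 0.543 and 0.686 TPM in PBs (3.84, SE 0.21, adjusted p = 3.69e-05). Gbp3, a guanylate-binding protein, stood at 71.9 and 61.4 TPM in PCs and 8.17 and 9.82 TPM in PBs (2.75, SE 0.13, adjusted p = 2.44e-05). Oas2, a sensor of viral RNA, stood at 5.18 and 5.91 TPM in PCs and 0.523 and 1.18 TPM in PBs (2.54, SE 0.36, adjusted p = 0.00126). The others were Usp18, Stat2 and Xaf1, and the call of Xaf1 was lost with a pseudocount of 1. The most abundant members differed little: Psmb8 stood at 629.5 and 638 TPM in PCs and 652 and 629 TPM in PBs. Bst2 (tetherin) stood at 355 and 391 TPM in PCs and 309.8 and 297 TPM in PBs. Neither passed the test. Psmb9, like Psmb8 a subunit of the immunoproteasome, stood at 519 and 490.1 TPM in PCs and 364 and 390 TPM in PBs (0.29, SE 0.07, adjusted p = 0.00988). The members were at near levels in both PC libraries, with a median difference of -0.01 on the log2 scale, but the list median was 0.81 without PC library 1 and 0.66 without PC library 2.

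The interferon-stimulated response element, searched as GAAA, any 2 bases and GAAA on either strand, was present in the RefSeq windows of 15 of 27 interferon genes (55.6 percent) and of 3.99 percent of all genes. The 15 genes had a median log2 difference of 0.63, and the 12 without a match one of 0.30, with 2 called in each. Members without a window, among them the called Mx1, Oas2 and Usp18, are in neither part. The median over all 35 members was 1.07. Gbp3 is shown as the called gene with a match that differed most, and its 2 matches overlap. The window lies at chr3:142559794-142560093, read from the plus strand.
Gbp3: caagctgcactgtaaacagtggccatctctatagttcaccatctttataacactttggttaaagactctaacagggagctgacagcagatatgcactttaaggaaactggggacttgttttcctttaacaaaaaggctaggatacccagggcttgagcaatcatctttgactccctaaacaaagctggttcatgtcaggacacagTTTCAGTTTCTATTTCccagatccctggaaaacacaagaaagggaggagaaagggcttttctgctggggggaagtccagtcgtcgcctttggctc

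Immediate early and heat shock genes gave the largest median toward PCs among the lists of cell programs, 1.26. Of 24 tested, 11 were called higher in PCs and 2 higher in PBs (against 7.97 and 6.52 percent of all genes). Fosb stood at 1094 and 928 TPM in PCs and 5.39 and 2.70 TPM in PBs (7.88, SE 0.32, adjusted p = 1.72e-05). Fos stood at 2544 and 2119 TPM in PCs and 126 and 73.8 TPM in PBs (4.46, SE 0.26, adjusted p = 4.78e-05). Jun stood at 1453 and 1223 TPM in PCs and 69.1 and 58.2 TPM in PBs (4.26, SE 0.13, adjusted p = 1.13e-05). All 3 are parts of the AP-1 factor. The inducible heat shock gene Hspa1a stood at 68.8 and 40.03 TPM in PCs and 0.0963 and 0.129 TPM in PBs (7.86, SE 0.31, adjusted p = 1.64e-05). Hspa1b stood at 109 and 74.98 TPM in PCs and 1.01 and 1.15 TPM in PBs (6.14, SE 0.21, adjusted p = 1.31e-05). They share most of their sequence, so that their single values are uncertain. Not every gene of the kind moved this way. Egr2, a factor of activated B cells, stood at 15.4 and 17.9 TPM in PCs and 60.2 and 50.7 TPM in PBs (-1.86, SE 0.12, adjusted p = 6.31e-05). Ier3, an early response gene, stood at 4.86 and 2.35 TPM in PCs and 33.7 and 45.02 TPM in PBs (-3.61, SE 0.35, adjusted p = 2.64e-04). Both were called higher in PBs. Between the Bhlha15 CreER/CreER PB libraries Egr2 differed by 0.56 on the log2 scale, within the 0.26 to 0.90 of the called fibroblast markers. Ier3 differed by 0.16 there. Zfp36, which degrades such transcripts, stood at 1558 and 1393 TPM in PCs and 679.6 and 572 TPM in PBs (1.11, SE 0.12, adjusted p = 4.50e-04). The median member was 0.28 higher in PC library 1 than in PC library 2 (log2 scale).

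The comparison was repeated in a second pair of groups that shared no library with the first but came from the same experiments, with 2 libraries each: PCs of Cd23-Cre Bhlha15 fl/fl mice, in which Cre acts in mature B cells, and PBs of Bhlha15 CreER/CreER mice, in which both alleles carry CreER. Bhlha15 stood at 14.4 and 16.6 TPM in these PCs and at 0.210 and 0.551 TPM in these PBs, below each control library. Of 12545 genes tested, 1006 were called higher in PCs (8.02 percent) and 864 higher in PBs (6.89 percent), or 544 toward PBs without library 1 of these PBs. The genes called in both pairs were 778 toward PCs, 77.0 percent of the control calls and 77.3 percent of the others, and 716 toward PBs, 86.7 and 82.9 percent. No gene was called in opposite directions. Of the 1004 genes called higher in control PCs that were tested in both, 1002 had the same sign, as did 825 of 826 toward PBs.

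Among the lists described above, 7 are set side by side. The medians were -1.77 for mitosis, -1.76 for MHC class II, -1.35 for glycolysis and -1.29 for hypoxia genes, against -1.50, -1.66, -1.79 and -1.84 in the control pair. Toward PCs they were 1.10 for homing, 1.28 for interferon and 1.09 for immediate early genes, against 1.03, 1.07 and 1.26. The median of B cell transcription factors, near 0 in both pairs, was 0.04 and -0.12. Mitotic genes gave 21 calls toward PBs there against 8. Neutrophil and fibroblast markers differed in the same way too, with sums of 925 and 607 TPM of neutrophil markers in the PCs and 2158 and 1337 TPM of fibroblast markers in the PBs. Both pairs therefore carried the same difference in culture, feeder and sort, and the second is no independent check on these.

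**Figure D4:**
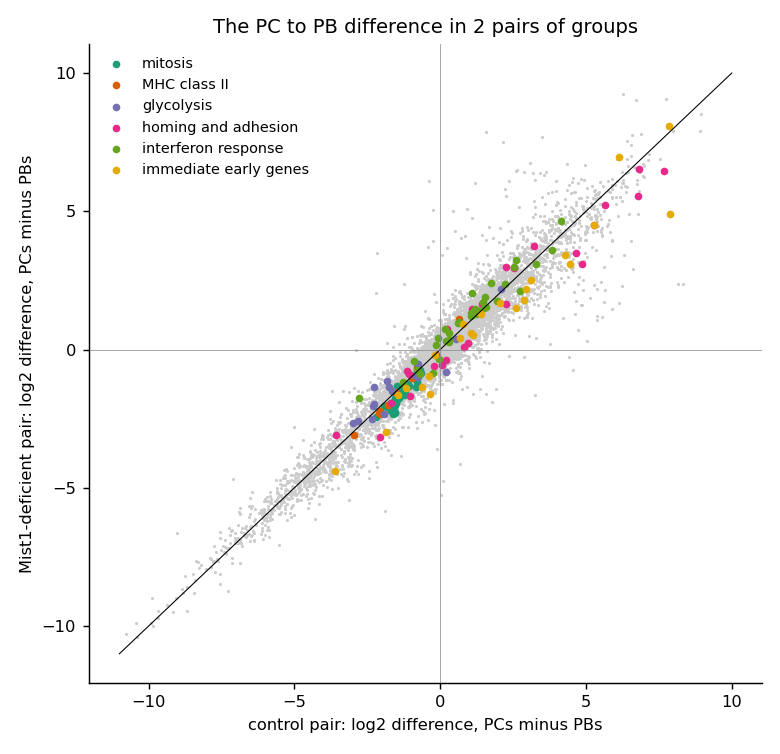
Log2 difference of PCs minus PBs in the control pair (x axis) and in the Mist1-deficient pair (y axis) for genes tested in both, with the line of equal values and 6 lists in color. The lists lie along the line, mitotic genes somewhat below it.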

How the data were processed

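RNA-seq of polyA RNA was compared in 2 control PC and 2 control PB libraries. Per the study's methods, the authors trimmed single reads with cutadapt, aligned them with STAR to mm9, counted genes with featureCounts, and deposited TPM from which immunoglobulin and T cell receptor genes had been left out. Whether counting used strand is not given in the sources used here, and TPM keep no depth. TPM were scaled by median-of-ratios factors, transformed as log2 of TPM plus 0.1 and compared with limma (trended variance) over genes of at least 1 TPM in at least 2 libraries, and the steps were tested on simulated data. Libraries were grouped by their labels and numbered only as names. Genes named are any member of lists of up to 20 genes. In longer lists they are the 4 called genes of largest change each way, the 3 most abundant and few exceptions, and over all genes the 15 called of largest change each way and the 10 most abundant per group. A few genes that the rule names are not reported here. Any further gene was picked with its values in view. The members and gene lists were chosen with earlier results of these data known. Alternatives varied the scaling, pseudocount, filter, variance model, libraries and gene names. The 2 ChIP samples of the series and the other libraries were not used in the control comparison. Promoter windows were taken from RefSeq (GRCm38.p6), whereas the files used mm9, so no coordinates of the files were used.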

Additional observations from a re-analysis of the deposited data

Results flagged for a closer look

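The difference between the control pair and the Mist1-deficient pair of PCs and PBs was tested for each gene in 1 limma model, and 593 of 13076 genes passed. Values are the log2 difference of PCs minus PBs in the Mist1-deficient pair less that in the control pair, with 2 libraries in each of the 4 groups. Genotype and the pair of groups cannot be told apart from the libraries that form them. Bhlha15, the gene that carries the alleles, differed by 4.54 (adjusted p = 0.00685). Toward PCs, Xist differed by 1.46, Cd28 by 0.62, Egln1 by 0.66 and Bst2 by 0.58. Xist follows the sex of the animals, which the labels do not give. Over Xist and the Y-linked genes, 5 in all, the median difference between the pairs was -3.86, and 1 of them passed. Their median was 5.75 (log2 scale) for library 1 minus library 2 of the Cd23-Cre Bhlha15 fl/fl PCs, so these 2 libraries were unlike in sex-linked RNA. Among homing and surface genes, Itgb7 differed by -1.16 (4.66 in the control pair and 3.50 in the other), Fcgr2b by -1.08 and Cd93 by -1.09. Of 34 mitotic genes 9 passed toward lower values, as did 5 of 44 replication genes, against 3.17 percent of all genes, and most members of both lists did not pass. This was not particular to these lists, since 6 of 26 homing genes and 5 of 22 ATF4 and amino acid genes also passed toward lower values. So did 3 of 15 G1, 3 of 17 STAT and 3 of 24 immediate early genes. Among the named cell cycle genes, Ccna2 differed by -0.74, Tpx2 by -0.55, Ube2c by -0.73 and Myc by -0.62. Among signaling genes, Socs3 differed by -1.56, Egr2 by -1.12 and Fas by -0.84. The microRNA genes Mir677 and Mir7079 differed by -5.91 and -5.76, and both were listed at 0 in the control PBs. The cause was not tested for any of these.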

How the results depend on the processing

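Over 16 alternatives the genes called higher in control PCs numbered 796 to 1130 and those called higher in control PBs 538 to 858. The count toward PBs was 554 without PB library 1 and 538 without PB library 2, and leaving out 1 library in turn gave 538 to 827. The filter asks for 1 TPM in 2 libraries, so that 294 of the 826 genes were not tested with a lone PB library. In the Mist1-deficient pair the count toward PBs was 544 without library 1 of the Bhlha15 CreER/CreER PBs, against 864 with all libraries and up to 855 without another one. With 1 library left in a group, that library is assumed to vary like the others. No named gene that was called changed sign. Without scaling the calls of Ccna2, Chaf1a, Cxcr5, Hmmr, Lig1, Nuf2, Rrm1 and Tpx2 were lost. Signs turned for genes that had not been called, with the adjusted p past 0.05 in 1 of the fits: after quantile normalization Cd24a was at 0.028, Cd79a at 0.0001, Pdia6 at 0.013 and Irf4 at 0.18, Ddx3y was at -0.34 without PC library 2 (and 0.58 without PC library 1), and Fcer2a was at 0.39 without PC library 1 (and -0.43 without PC library 2). The cause was not tested. No paired analysis was possible because the labels carry no replicate numbers that the groups share. Depth is unknown from TPM, and 2 libraries a group limit the precision.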
